A study of Mus musculus with 12 samples.

Results

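Endocytic uptake and lipoprotein genes of the visceral endoderm were followed through a WNT response in cultured mouse cells. The group holds 10 of the 24736 genes in the table, namely Cubn, Amn, Lrp2, Dab2, Apoe, Apoa1, Apob, Ttr, Afp and Rbp4. They were chosen by name, after a rise of some of them in the engineered cell line had been seen in these same libraries, so levels in that line relative to wild type are given as a description, with fold changes and no p-value. RNA was sequenced from 12 cultures of differentiating embryonic stem cells at 72 h, with 3 biological replicates in each of 4 groups. All cultures received bFGF at 10 ng/ml and 5 µM LGK974, a blocker of WNT ligand secretion. EpiLC (epiblast-like cells) were wild type and received nothing further. CEpiLC (caudal epiblast-like cells) were wild type and were given CHIR99021, a GSK3 inhibitor that turns on WNT signalling, from day 2 to day 3. SOX2-OFF and SOX2-ON cultures had the genotype Sox2-/- and carried a Sox2 transgene in the Hprt locus that is driven by doxycycline through rtTA expressed from Rosa26. Both received CHIR99021 like the CEpiLC. Doxycycline was withdrawn during differentiation for SOX2-OFF and kept at 1 µg/ml for SOX2-ON. The engineered cells, called SOX2 TetON, are a single line expanded after gene editing, and no culture of that line without CHIR99021 was analysed here. With a single line, line and genotype cannot be told apart in any comparison of SOX2 TetON with wild type. Against CEpiLC, a difference between the lines and a different response to CHIR99021 cannot be told apart either. Against EpiLC, CHIR99021 differs as well.

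The visceral endoderm is the epithelium that covers the early mouse embryo and takes up maternal nutrients before a placenta has formed. Cubilin (Cubn) binds ligands at the apical surface but has no membrane-spanning part of its own. Amnionless (Amn) anchors cubilin in the membrane, megalin (Lrp2) is a large receptor of the LDL receptor family that takes up an overlapping set of ligands, and the adaptor Dab2 links such receptors to the clathrin coat. The same epithelium makes lipoproteins and carrier proteins: Apob is the structural protein of large lipoproteins, Apoa1 that of high-density lipoprotein, and Apoe is a ligand of LDL receptors. Transthyretin (Ttr) and Rbp4 carry thyroxine and retinol, and Afp (alpha-fetoprotein) is an albumin-like serum protein of the fetus.

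Sox2 itself was checked first. Its level in TPM (transcript abundance scaled for transcript length and library total) averaged 137 ± 29.7 (SD, n = 3) over the EpiLC libraries and 10.4 ± 3.01 over the CEpiLC libraries. SOX2-OFF averaged 16.5 ± 4.48 and SOX2-ON 187 ± 24.0. The labels of the doxycycline groups were thus borne out, with every SOX2-ON library at 173 TPM or above and every SOX2-OFF library at 21.2 or below. The libraries held 10408252 to 27337740 expected counts. The median of all genes differed by at most 0.0148 on the log2 scale in any comparison. Chromosomes 6 and 8 were higher and chromosome 11 lower across their genes in SOX2 TetON than in wild type, by 0.58, 0.61 and -0.52 on the log2 scale. None of the 10 genes lies on these, and their own chromosomes were shifted by -0.020 to 0.034.

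SOX2-ON replicate 3 stood apart from the other SOX2-ON libraries for these genes. It had the highest TPM of the 3 for all 8 members that passed the filter on low counts, against 40.3% of all 14196 genes tested. Its TPM over the mean of replicates 1 and 2 ranged from 1.94 for Lrp2 to 5.33 for Apob, with a median of 2.68, while the median of all genes tested was 1.02. The same library was also highest for 10 of 11 regulators of extraembryonic endoderm, 15 of 16 other visceral endoderm genes and 10 of 12 parietal endoderm genes. It was highest for 0 of 10 fibroblast genes. Its Sox2 level of 174 TPM was close to that of replicate 2 at 173, and its total of 17557433 counts lay within the range of the others. Values without this library are therefore given beside the SOX2-ON differences of the members. In whole cultures, fewer cells of a type and less RNA per cell cannot be told apart.

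**Figure D1:**
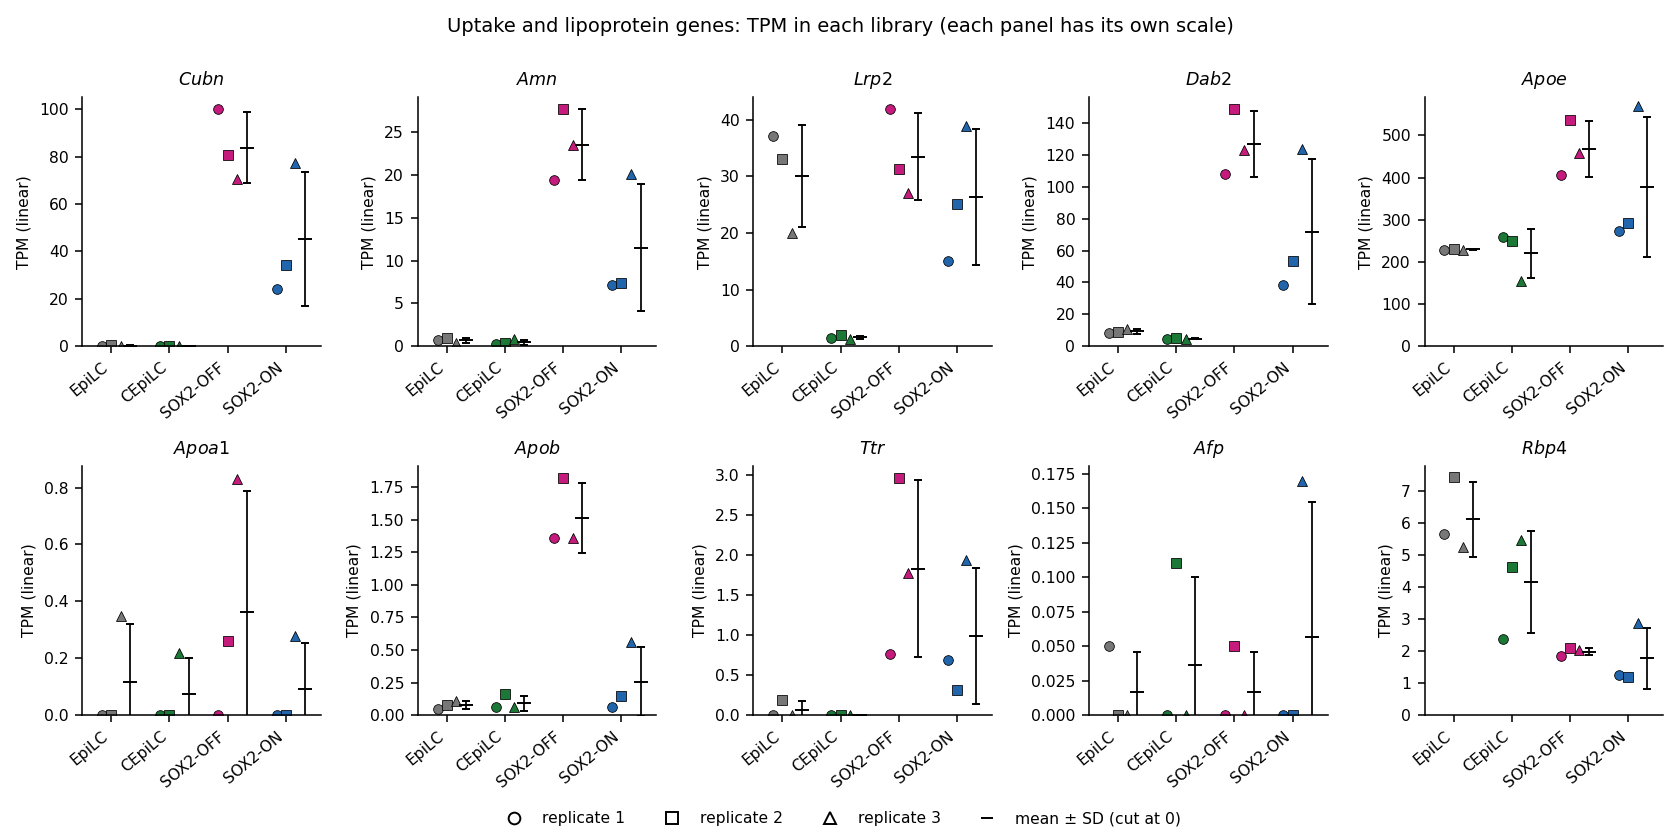
TPM of each of the 10 genes (linear axis, a separate scale in each panel) in the 3 libraries of each group, with the mean and SD beside them and error bars cut at 0. Cubn, Amn and Dab2 are high in SOX2-OFF and SOX2-ON, Lrp2 is low in CEpiLC alone, and the axes of Apoa1 and Afp end below 1 TPM.

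The label of the gene group was checked against its own defining members and against lists of marker genes. Afp had 0 to 3 counts in every one of the 12 libraries. Apoa1 had 0 to 2 counts in all libraries but SOX2-OFF replicate 3, which had 4. Both failed the filter on low counts and were not tested. Of 14 listed secreted serum and retinol-handling genes, 7 were at or below 3 counts in every SOX2-OFF and every SOX2-ON library, among them the albumin gene Alb and the fibrinogen genes Fga, Fgb and Fgg. Other listed serum genes were present at a low level. Trf (transferrin) averaged 1.13 TPM over CEpiLC, 0.587 over SOX2-OFF and 7.72 over SOX2-ON, Ahsg (fetuin A) 0.80, 1.66 and 6.48, and Gc (vitamin D binding protein) 0.013, 0.15 and 1.17.

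Summed TPM of 16 other visceral endoderm genes ran from 788 to 950 over the EpiLC libraries and from 670 to 872 over CEpiLC. SOX2-OFF reached 2229 to 2547 and SOX2-ON 1049 to 1828. The parietal endoderm is the sister tissue that lays down a thick basement membrane, and 12 of its genes summed to 386 to 405, 949 to 1116, 2294 to 2645 and 1019 to 2119 TPM in the same order. Unlike the visceral sum, the parietal sum was above EpiLC in CEpiLC, but single genes weigh heavily in both. In the visceral sum, Emb fell from 395 to 102 TPM on average. Of its 16 genes, 6 were called higher in CEpiLC and 1, Emb, lower (edgeR, adjusted p at most 0.05), beside 22.1% and 20.1% of all genes. In the parietal sum, Fst, which encodes follistatin, rose from 5.66 to 587 TPM on average. Fst averaged 410 TPM in SOX2-OFF and 129 in SOX2-ON. Regulators shared by both tissues, such as the transcription factors Gata4 and Gata6, summed over 12 genes to 3.79 to 5.36, 9.49 to 34.4, 115 to 141 and 78.8 to 179 TPM. Since both lists were highest in SOX2-OFF, the 10 genes are called uptake and lipoprotein genes from here on and no cell type is assigned to the cultures. The 10 fibroblast genes, listed because the stem cells had been grown on feeder fibroblasts, summed to 43.9 to 61.3, 60.6 to 91.2, 24.0 to 48.6 and 31.4 to 53.4 TPM, and 0 of them were at or below 3 counts throughout either SOX2 TetON group. The 7 trophoblast genes summed to 5.28 to 8.68, 5.59 to 6.08, 11.6 to 19.9 and 31.9 to 50.6 TPM, with Elf5 at or below 3 counts in every group. The 9 genes listed for definitive and anterior endoderm summed to 32.4 to 104, 33.3 to 48.6, 108 to 134 and 971 to 1315 TPM. Most of that SOX2-ON sum was Trh, which averaged 69.5, 14.7, 41.0 and 1049 TPM in the same order. The part of other cell types in the levels below was not tested.

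**Figure D2:**
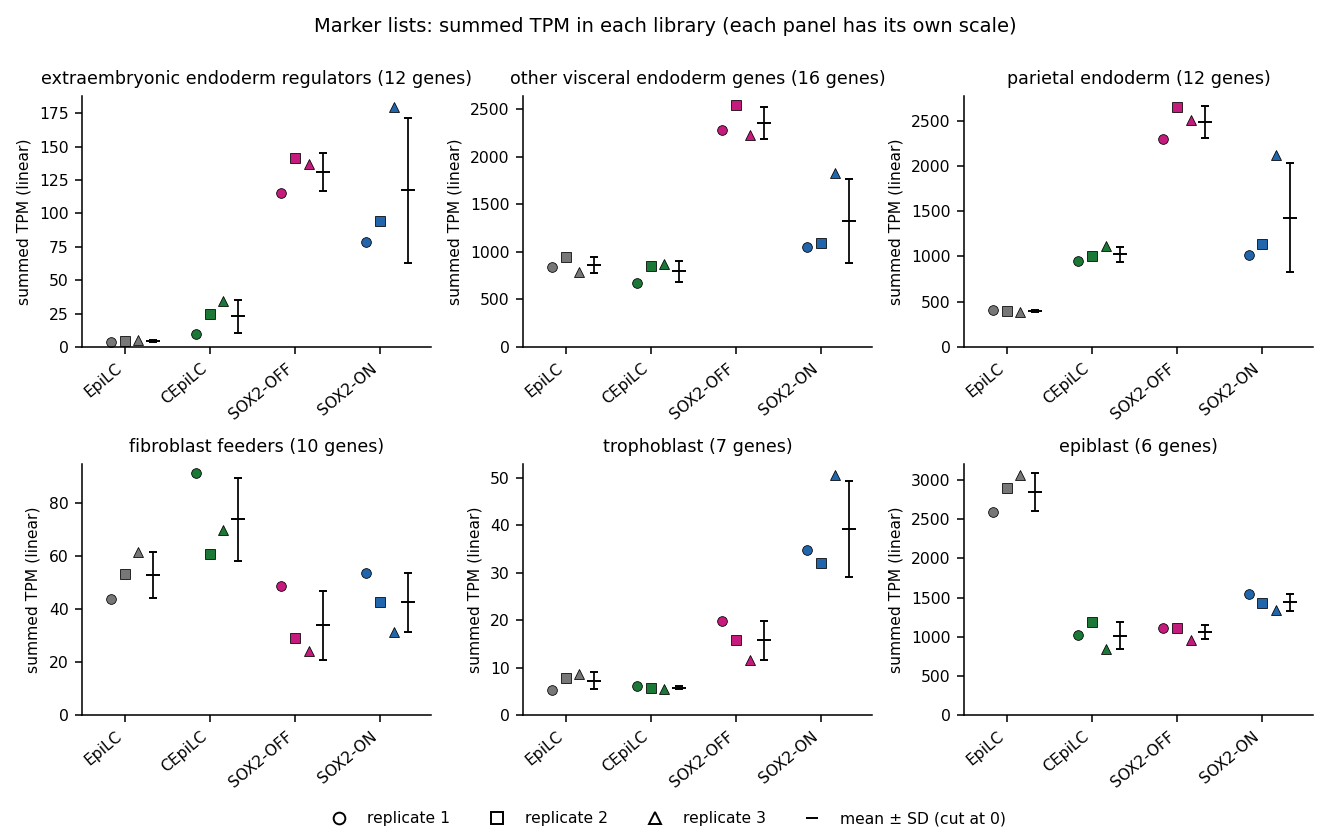
Summed TPM of 6 marker lists (linear axis, a separate scale in each panel) in each library, with the mean and SD per group and error bars cut at 0. The visceral and parietal endoderm lists and their shared regulators are highest in SOX2-OFF or in SOX2-ON replicate 3, whereas fibroblast sums do not exceed 53.4 TPM in SOX2 TetON.

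Cubn lies at chr2:13276338-13491876 on the minus strand, Amn at chr12:111271096-111276426 on the plus strand, Dab2 at chr15:6299788-6440715 on the plus strand and Lrp2 at chr2:69424335-69586029 on the minus strand (GRCm38.p6). These 4 are the parts of the uptake machinery, and the 250 bases before their annotated starts are shown because their levels are compared throughout. The windows are chr2:13491877-13492126, chr12:111270846-111271095, chr15:6299539-6299788 and chr2:69586030-69586279, each read 5′ to 3′ on the strand of its gene, from RefSeq on GRCm38.p6. Capitals mark words searched on both strands.
Cubn: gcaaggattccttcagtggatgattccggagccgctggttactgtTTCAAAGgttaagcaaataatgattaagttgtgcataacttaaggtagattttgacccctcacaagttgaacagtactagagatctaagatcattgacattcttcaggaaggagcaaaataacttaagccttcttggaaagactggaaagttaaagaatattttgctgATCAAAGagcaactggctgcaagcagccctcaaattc
Amn: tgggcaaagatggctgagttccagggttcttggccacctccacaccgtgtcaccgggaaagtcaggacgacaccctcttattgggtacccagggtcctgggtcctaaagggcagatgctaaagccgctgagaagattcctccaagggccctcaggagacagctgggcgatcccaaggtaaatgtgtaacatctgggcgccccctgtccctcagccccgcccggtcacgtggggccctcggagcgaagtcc
Dab2: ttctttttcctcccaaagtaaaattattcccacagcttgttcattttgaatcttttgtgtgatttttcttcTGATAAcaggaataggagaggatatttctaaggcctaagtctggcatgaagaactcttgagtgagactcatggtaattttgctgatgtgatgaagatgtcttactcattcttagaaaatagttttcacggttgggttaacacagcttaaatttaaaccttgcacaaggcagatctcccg
Lrp2: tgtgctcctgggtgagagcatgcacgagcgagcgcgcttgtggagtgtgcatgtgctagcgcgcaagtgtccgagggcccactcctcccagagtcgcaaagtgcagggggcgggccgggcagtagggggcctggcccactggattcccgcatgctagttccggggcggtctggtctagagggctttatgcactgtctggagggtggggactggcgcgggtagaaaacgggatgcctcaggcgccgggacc

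The words searched were AGATAA or TGATAA or AGATAG or TGATAG for GATA factors, ACAATG or ACAAAG for SOX factors, ATCAAAG or TTCAAAG for TCF/LEF, TGTTTAC or TGTTTGC for FOXA, CAAAGTCCA or CAAAGTTCA for HNF4, and the palindromic HNF1 motif. The TCF/LEF and HNF4 words share the letters CAAAG and can overlap. Cubn held 2 TCF/LEF words, which begin 205 and 37 bases before its start. Dab2 held 1 GATA word, which begins 179 bases before its start, and Amn and Lrp2 held none of the words in this window. Over all 32851 RefSeq windows of that length, 7.48% held a TCF/LEF word and 26.5% a GATA word. Windows were given for 9 of the 10 genes, with none for Ttr. Among these 9, TCF/LEF words stood in Cubn, Apob and Rbp4, GATA words in Dab2 and Apoa1, SOX words (25.2% of all windows) in Apoe and Afp, and FOXA words (7.29%) in Apoa1, Apob, Afp and Rbp4. HNF1 and HNF4 words were found in 0 of the 9, against 0.116% and 0.715% of all windows. Of the 4 windows printed, GC content was 36.8% for Dab2, 39.6% for Cubn, 61.2% for Amn and 66.4% for Lrp2. A match is only a run of letters and does not show that a factor binds there.

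Cubilin changed most between the lines. Its TPM was 0.14, 0.35 and 0.33 in the EpiLC libraries and 0.08, 0.14 and 0.22 in the CEpiLC libraries. SOX2-OFF libraries had 100.1, 80.6 and 70.5, and SOX2-ON libraries 24.0, 34.2 and 77.4. The lowest SOX2 TetON library was thus far above every wild-type library, and SOX2-ON replicate 3 lay inside the SOX2-OFF range. On the log2 scale, Cubn was higher than in CEpiLC by 9.34 ± 0.54 (SE) in SOX2-OFF and by 8.39 ± 0.54 in SOX2-ON, and than in EpiLC by 8.30 ± 0.49 and 7.35 ± 0.49. Without SOX2-ON replicate 3 the SOX2-ON differences were 7.78 and 6.74.

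Its membrane partner Amn followed at a lower level. Amn had a TPM of 0.72, 0.96 and 0.37 in EpiLC and of 0.22, 0.33 and 0.81 in CEpiLC, which rest on 4 to 15 counts per library. SOX2-OFF libraries had 19.4, 27.7 and 23.5 TPM, and SOX2-ON libraries had 7.09, 7.33 and 20.1. No SOX2 TetON library overlapped a wild-type library. The log2 differences from CEpiLC were 5.95 ± 0.52 (SE) for SOX2-OFF and 4.86 ± 0.54 for SOX2-ON, and those from EpiLC were 5.05 ± 0.47 and 3.96 ± 0.48. Without SOX2-ON replicate 3, the SOX2-ON differences were 4.21 and 3.31. Cubn stood at 2.91 to 5.16 times the TPM of Amn in the 6 SOX2 TetON libraries and at 0.194 to 0.892 times in the 6 wild-type libraries, where both were low.

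The adaptor Dab2 was present in all groups. Its TPM was 8.15, 9.04 and 10.7 in EpiLC, and 4.66, 5.10 and 4.28 in CEpiLC. The SOX2-OFF libraries reached 108, 149 and 123, and the SOX2-ON libraries 38.4, 53.4 and 124. The 4 groups followed the order SOX2-OFF, SOX2-ON, EpiLC, CEpiLC by their means, and only the first 2 overlapped. Dab2 was higher than in CEpiLC by 4.59 ± 0.36 (SE, log2) in SOX2-OFF and 3.72 ± 0.36 in SOX2-ON, and higher than in EpiLC by 3.63 ± 0.34 and 2.76 ± 0.33. Leaving out SOX2-ON replicate 3 gave 3.10 and 2.14 for SOX2-ON. The TPM ratio of Cubn to Dab2 was 0.625, 0.641 and 0.626 in the SOX2-ON libraries, although Cubn itself ran from 24.0 to 77.4 TPM there. In SOX2-OFF the ratio was 0.925, 0.541 and 0.572, and in wild type 0.0172 to 0.0514.

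Megalin behaved unlike its 3 partners. Lrp2 TPM was 37.2, 33 and 19.9 in EpiLC and fell to 1.39, 1.91 and 1.37 in CEpiLC. SOX2-OFF libraries had 42.0, 31.3 and 27.1, while SOX2-ON libraries had 15.1, 25.2 and 39.0. EpiLC and both SOX2 TetON groups overlapped, and CEpiLC lay below all of them. Relative to CEpiLC, Lrp2 was higher by 4.43 ± 0.35 (SE, log2) in SOX2-OFF and by 4.03 ± 0.35 in SOX2-ON, or by 3.66 without SOX2-ON replicate 3. Relative to EpiLC the differences were 0.17 ± 0.29 and -0.23 ± 0.29, or -0.61 for SOX2-ON without replicate 3. EpiLC thus had megalin at the level of the SOX2 TetON line with next to no Cubn, whose TPM was 0.00377 to 0.0166 times that of Lrp2 there and 1.36 to 2.60 times in SOX2 TetON.

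Among the lipoprotein genes, Apoe was abundant in every group. It had a TPM of 229, 231 and 229 in EpiLC and of 260, 249 and 154 in CEpiLC. SOX2-OFF libraries had 406, 537 and 459 TPM, and SOX2-ON libraries had 274, 292 and 570. All 6 SOX2 TetON libraries were above all 6 wild-type libraries. The differences were small beside those of the receptors, with 1.10 ± 0.24 (SE, log2) for SOX2-OFF and 0.73 ± 0.24 for SOX2-ON against CEpiLC, and 1.05 ± 0.24 and 0.69 ± 0.24 against EpiLC. SOX2-ON differences dropped to 0.34 and 0.29 without replicate 3.

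Apob was found mainly in SOX2-OFF, and at a low level. It had 7, 11 and 11 counts in the EpiLC libraries, and 12, 23 and 5 in CEpiLC. The SOX2-OFF libraries held 168, 248 and 113, and the SOX2-ON libraries 8, 19 and 70. The SOX2-OFF counts correspond to 1.36, 1.82 and 1.36 TPM, against at most 0.56 TPM in any other library. SOX2-OFF stood clear of the other 9 libraries, with log2 differences of 3.99 ± 0.59 (SE) from CEpiLC and 4.36 ± 0.61 from EpiLC. SOX2-ON overlapped both wild-type groups, and its differences of 1.35 ± 0.65 and 1.72 ± 0.69 shrank to 0.08 and 0.45 without replicate 3.

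The carrier genes were scarce and went in opposite directions. Ttr had 0 counts in all 3 CEpiLC libraries, and 0, 2 and 0 in EpiLC. The SOX2-OFF libraries held 7, 30 and 11, and the SOX2-ON libraries 7, 3 and 18. Against a floor of 3 counts per library for CEpiLC, SOX2-OFF was at least 5.59-fold higher and SOX2-ON at least 2.86-fold higher. Over EpiLC the ratio was 28.0 (95% counting interval 7.35 to 238) for SOX2-OFF and 13.9 (3.51 to 121) for SOX2-ON, resting on 2 EpiLC counts in all. Without SOX2-ON replicate 3, SOX2-ON was at least 1.49-fold higher than the CEpiLC floor, and its ratio over EpiLC was 7.37 (1.57 to 69.2). Ttr passed the filter on low counts only through the SOX2 TetON groups. Apoa1 summed to 2, 1, 6 and 2 counts over the libraries of EpiLC, CEpiLC, SOX2-OFF and SOX2-ON, and Afp to 1, 2, 1 and 3 counts, so that no difference between groups was detectable at this depth. A floor of 3 counts equals 0.39 to 0.66 TPM for Apoa1 and 0.15 to 0.17 TPM for Afp.

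Rbp4 was the single member that was lower in SOX2 TetON. Its TPM was 5.64, 7.44 and 5.25 in EpiLC and 2.38, 4.63 and 5.45 in CEpiLC. SOX2-OFF libraries had 1.85, 2.08 and 2.02, and SOX2-ON libraries 1.24, 1.20 and 2.87, from 9 to 19 counts per library. SOX2-OFF lay below both wild-type groups, while SOX2-ON overlapped CEpiLC through replicate 3. The log2 differences from CEpiLC were -0.98 ± 0.38 (SE) for SOX2-OFF and -1.20 ± 0.38 for SOX2-ON, and those from EpiLC were -1.65 ± 0.36 and -1.88 ± 0.36. Without SOX2-ON replicate 3, the SOX2-ON differences were -1.66 and -2.34.

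**Figure D3:**
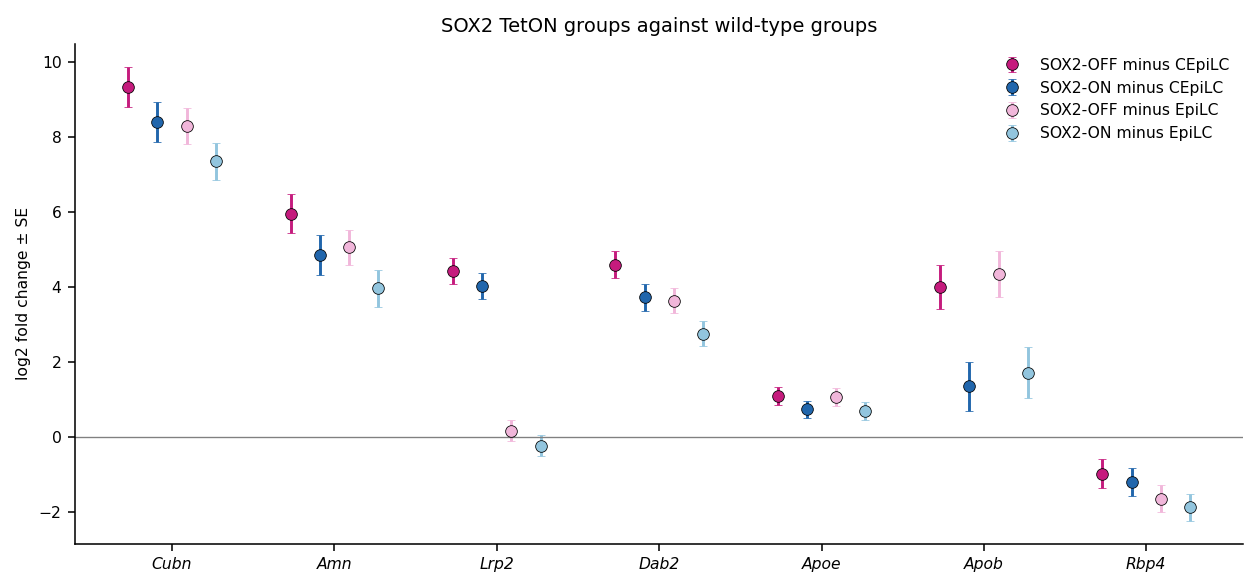
Log2 fold change with its SE (vertical axis) of 7 genes in each SOX2 TetON group minus each wild-type group. The differences of Cubn (7.35 to 9.34) are the largest, those of Lrp2 are near 0 against EpiLC alone, and those of Rbp4 (-1.88 to -0.98) are below 0 throughout.

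For completeness, members past an adjusted p of 0.05 in the fit of all 14196 genes (edgeR quasi-likelihood test, Benjamini-Hochberg) were counted beside the share of all genes, which is no test of the members. SOX2-OFF against CEpiLC held 7 members higher and 1 lower of 8, where 48.5% of all genes were called, 23.6% higher and 24.9% lower. SOX2-ON against CEpiLC held 6 higher and 1 lower (56.5% of all genes, 27.9% higher and 28.6% lower). SOX2-OFF against EpiLC held 6 higher and 1 lower (62.1%, 31.5% higher and 30.6% lower), and SOX2-ON against EpiLC 6 higher and 1 lower (59.8%, 30.7% higher and 29.1% lower). Without SOX2-ON replicate 3 the counts of SOX2-ON were 5 higher and 1 lower against CEpiLC (50.1% of all genes called) and 3 higher and 1 lower against EpiLC (53.8%). The count against EpiLC was likewise 4 without EpiLC replicate 1 or EpiLC replicate 3. Nothing is read from these counts, since the genes were chosen with such differences in view, Ttr passed the filter only through the SOX2 TetON groups, and the 4 comparisons share their samples.

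The response to CHIR99021 in wild type was tested too. The genes were chosen after a rise in SOX2 TetON relative to wild type had been seen, and the CEpiLC libraries belong to that comparison. The p-values here are therefore not independent of the choice, which can favour genes low in CEpiLC. In CEpiLC against EpiLC, Lrp2 fell by 4.26 ± 0.35 on the log2 scale (SE; edgeR quasi-likelihood test, Benjamini-Hochberg adjusted p = 9.39e-07), with all 3 CEpiLC libraries below all 3 EpiLC libraries. In this fit, which did not pair the libraries, Lrp2 was the only member called of the 8 tested. Of all genes tested, 42.2% were called, 22.1% higher and 20.1% lower. The call for Lrp2 held under every alternative tried, with values from -4.49 to -4.08. For Dab2 the difference was -0.96 ± 0.37, with groups that did not overlap and an adjusted p of 0.0514 by edgeR. With the replicate number as a block, the difference was -0.91 with an adjusted p of 0.0327, and the lowest and highest adjusted p under any alternative were 0.000304 and 0.116.

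The other tested members did not pass. Cubn differed by -1.05 (95% interval -3.03 to 0.94, log2; adjusted p = 0.388 by edgeR) and Amn by -0.90 (-2.57 to 0.77; adjusted p = 0.378 by edgeR). Rbp4 differed by -0.68 (-1.38 to 0.03; adjusted p = 0.113 by edgeR), and its groups did not overlap in CPM although they did in TPM. Apob differed by 0.37 (-1.33 to 2.06; adjusted p = 0.737 by edgeR). For Apoe the difference was -0.04 (-0.56 to 0.48; adjusted p = 0.906 by edgeR), so that the megalin ligand stayed abundant in CEpiLC where the receptor was low. In CPM, Lrp2, Dab2 and Rbp4, 3 of the 8 members, had groups that did not overlap, all lower in CEpiLC, as had 52.3% of all genes, 25.5% lower. The intervals above leave room for falls of Cubn, Amn, Rbp4 and Apob by more than 1 on the log2 scale. For Apob they also leave room for a rise of more than 1.

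SOX2-ON was then compared with SOX2-OFF, which differ in doxycycline within the engineered line. The genes were chosen with the levels of both groups in view, so the p-values of this comparison are not independent of that choice, and Ttr passed the filter only through these groups. Apob fell by 2.64 ± 0.52 on the log2 scale (SE; edgeR quasi-likelihood test, Benjamini-Hochberg adjusted p = 0.00193), and all 3 SOX2-ON libraries lay below all 3 SOX2-OFF libraries. Uptake genes were also called lower, Amn by -1.09 ± 0.34 (adjusted p = 0.0288 by edgeR), Cubn by -0.95 ± 0.31 (adjusted p = 0.0349 by edgeR) and Dab2 by -0.87 ± 0.29 (adjusted p = 0.0401 by edgeR). Thus 4 of the 8 tested members were called, all lower, where 28.8% of all genes were called, 14.8% higher and 14.1% lower. Lrp2 (-0.40 ± 0.29, adjusted p = 0.329), Apoe (-0.37 ± 0.24, adjusted p = 0.275), Ttr (-0.98 ± 0.66, adjusted p = 0.300) and Rbp4 (-0.23 ± 0.42, adjusted p = 0.730) did not pass in the edgeR test. Only Apob, 1 of the 8, had groups that did not overlap, lower in SOX2-ON, against 43.8% of all genes (21.6% lower).

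Apob was the member whose call held in every alternative, with an adjusted p from 4.09e-05 to 0.0128. For Cubn, Amn and Dab2 the SOX2-ON and SOX2-OFF groups overlapped through SOX2-ON replicate 3. Across the alternatives, the adjusted p of Cubn ran from 6.28e-05 to 0.129, that of Amn from 0.000281 to 0.114 and that of Dab2 from 1.54e-05 to 0.146. Without SOX2-ON replicate 3, 6 of 8 members were called lower (27.2% of 14422 genes called, 13.9% lower). The differences were then -1.57 ± 0.18 for Cubn, -1.75 ± 0.25 for Amn, -1.50 ± 0.14 for Dab2, -0.78 ± 0.27 for Lrp2, -0.77 ± 0.17 for Apoe and -3.92 ± 0.43 for Apob. Ttr (-1.89 ± 0.73) and Rbp4 (-0.70 ± 0.44) were not called. The adjusted p-values of the 6 called in edgeR were at most 0.0463. Leaving out SOX2-OFF replicate 2, SOX2-ON replicate 1 or SOX2-ON replicate 2 left 1 call, Apob, and leaving out SOX2-OFF replicate 3 left 2.

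**Figure D4:**
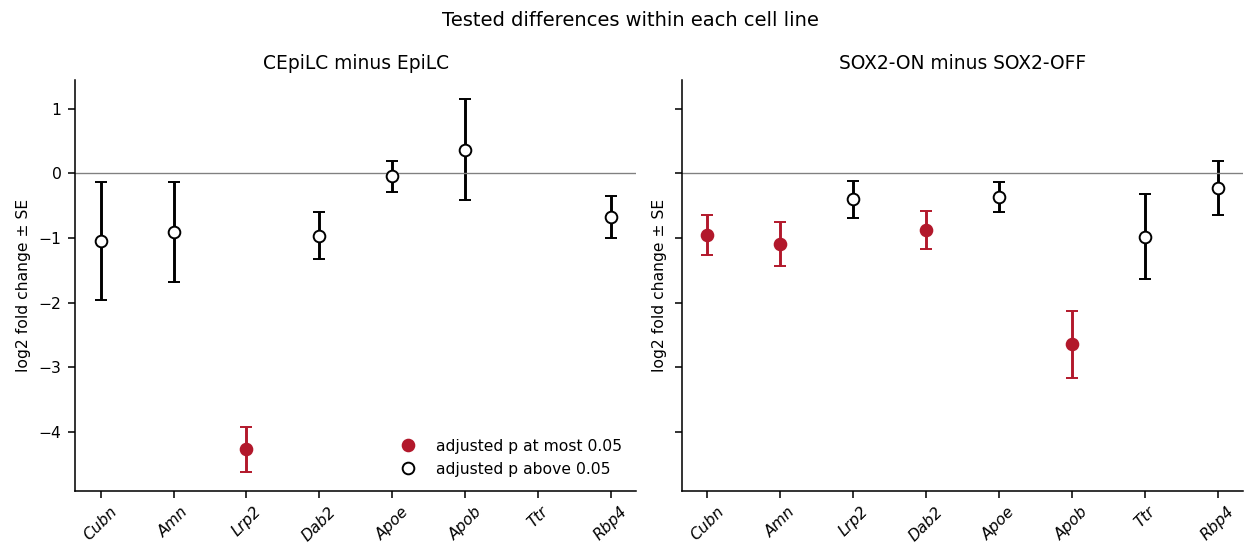
Log2 fold change with its SE (vertical axis) of the tested members in CEpiLC minus EpiLC and in SOX2-ON minus SOX2-OFF, with filled points at an adjusted p of at most 0.05 in edgeR. Lrp2 (-4.26) is filled on the left, Cubn, Amn, Dab2 and Apob are filled on the right, and Ttr is left out on the left because both groups are at the floor of counts.

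Single libraries show how the SOX2-ON values came about. The mean TPM of SOX2-ON replicates 1 and 2 was 0.348 times the SOX2-OFF mean for Cubn, 0.307 times for Amn and 0.362 times for Dab2. Replicate 3 stood at 0.924, 0.856 and 0.975 times the SOX2-OFF mean for the same genes. For Lrp2 and Apoe, replicates 1 and 2 were at 0.601 and 0.605 times the SOX2-OFF mean while replicate 3 lay above that mean, by 1.22 times for Apoe. Apob differed even there, with 0.0694 times for replicates 1 and 2 and 0.370 times for replicate 3.

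**Figure D5:**
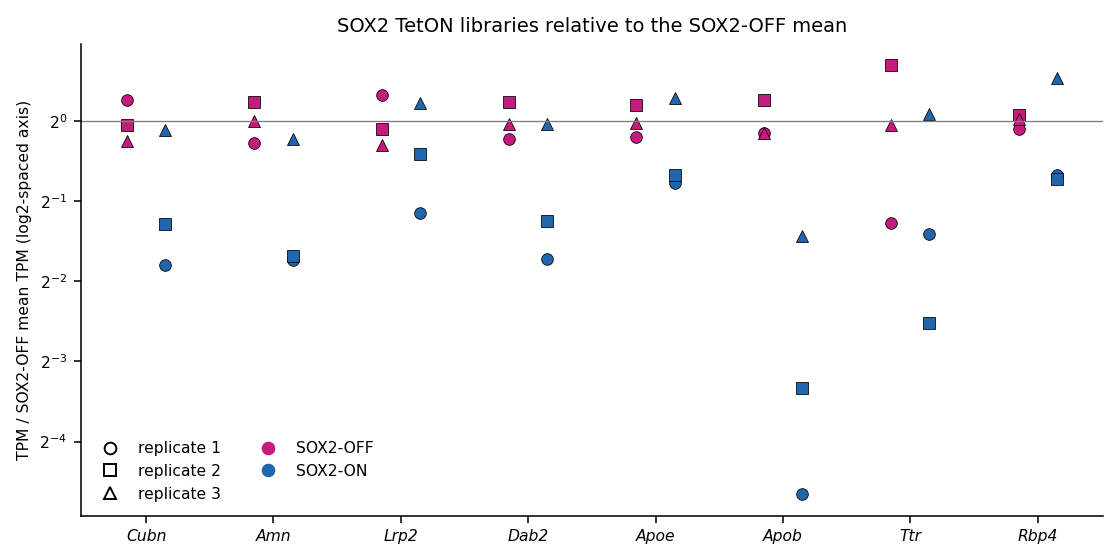
TPM of each SOX2-OFF and SOX2-ON library divided by the SOX2-OFF mean of that gene (log2-spaced axis) for the 8 members that passed the filter. SOX2-ON replicates 1 and 2 lie below all SOX2-OFF libraries for Cubn, Amn and Dab2, and replicate 3 lies at 0.856 or above for all members but Apob.

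A further 89 genes, from lists written with earlier results known, were tested for comparison. The lists cover the LDL receptor family, the receptor chaperone, adaptors and clathrin coat, lipoprotein assembly and turnover, and serum and retinol genes. They also hold the regulators of extraembryonic endoderm and the other visceral endoderm genes, which are cell type markers. Of the 89, 70 passed the filter, among them 11 of these regulators and 16 other visceral endoderm genes. In SOX2-ON against SOX2-OFF, 9 rose and 22 fell, which is 44.3% of the 70 where 28.8% of all genes were called, and their median was -0.25 on the log2 scale against -0.01 for all genes. The 31 calls became 18 without SOX2-OFF replicate 2, 19 without SOX2-ON replicate 2 and 40 without SOX2-ON replicate 3. Of these 40, 8 were higher and 32 lower, and they made up 57.1% of the 70 beside 27.2% of all genes. In the receptor chaperone, adaptor and clathrin coat list, 7 of 16 fell and 1 rose, where 14.1% of all genes fell and 14.8% rose. The motor Myo6, which carries endocytic vesicles with Dab2, fell by 0.65 ± 0.19 (adjusted p = 0.0206 by edgeR). The endosomal chloride transporter Clcn5 fell by 1.17 ± 0.17 (adjusted p = 0.000196 by edgeR), and the rise was that of Dab1, the neuronal relative of Dab2, by 1.08 ± 0.15 (adjusted p = 0.000131 by edgeR). The differences without SOX2-ON replicate 3 were -0.95 for Myo6, -1.39 for Clcn5 and 1.17 for Dab1.

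Of 11 tested genes of lipoprotein assembly and turnover, 2 fell and 0 rose, beside 14.1% and 14.8% of all genes. Mttp, the transfer protein that lipidates Apob, had 5.89, 6.45 and 11.6 TPM in SOX2-ON and 14.8, 19.1 and 18.7 in SOX2-OFF, a fall of 1.19 ± 0.20 (adjusted p = 0.00064 by edgeR). Pla2g12b, which takes part in lipoprotein secretion, had 0.58, 0.62 and 2.16 TPM against 2.83, 4.55 and 4.16, a fall of 1.84 ± 0.50 (adjusted p = 0.0229 by edgeR), and was listed at 0 in all wild-type libraries. Pla2g12b had 5, 5 and 17 counts over the SOX2-ON libraries and passed the filter on low counts through SOX2-OFF, its higher group. Mttp differed by -1.53 and Pla2g12b by -2.69 without SOX2-ON replicate 3. Among the listed serum and retinol genes, Trf, Ahsg and Gc rose and Stra6 fell. Gc had at most 4 counts in any SOX2-OFF library, while SOX2-ON replicates 1 to 3 held 15, 13 and 25. Gc thus passed the filter on low counts only through SOX2-ON, the group where it was called higher. Trf rose by 3.66 ± 0.27 (adjusted p = 1.14e-06 by edgeR), from 0.52 to 0.62 TPM in SOX2-OFF to 6.26 to 10.5 in SOX2-ON. Stra6, the membrane receptor for Rbp4, fell by 1.96 ± 0.53 (adjusted p = 0.0148 by edgeR), and without SOX2-ON replicate 3 the differences were 3.38 for Trf and -2.31 for Stra6. Within the LDL receptor family, 2 of 10 rose and 4 fell, including Lrp8 by 0.94 ± 0.16 (adjusted p = 0.000767 by edgeR), or -0.98 without SOX2-ON replicate 3.

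Endoderm lists gave mixed counts in the same comparison, and their regulators and other visceral endoderm genes are part of the 70 above. Of the tested genes, 7 of 16 other visceral endoderm genes and 7 of 12 parietal endoderm genes fell and 0 of either list rose, where 14.1% of all genes fell. These counts were 12 of 16 and 11 of 12 without SOX2-ON replicate 3, where 13.9% of all genes fell. Among 11 regulators, Gata6 and Onecut1 rose and Foxa2 fell, but without SOX2-ON replicate 3 the list held 0 higher and 6 lower. Of 10 fibroblast genes 1 rose and 0 fell, and of 6 trophoblast genes 1 rose and 1 fell. Of 6 tested definitive and anterior endoderm genes, 2 rose and 2 fell, beside 14.8% and 14.1% of all genes.

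In CEpiLC against EpiLC, 23 of the 70 rose and 7 fell, or 42.9% beside 42.2% of all genes, with a median of 0.12. Lrp2 fell there, while of 10 other tested receptors of its family 3 rose and 1 fell, beside 22.1% and 20.1% of all genes. The 3 were Lrp8 by 2.07 ± 0.17 (adjusted p = 9.47e-07 by edgeR), Lrp12 by 0.80 ± 0.11 (adjusted p = 9.37e-05 by edgeR) and Lrp10 by 0.36 ± 0.08 (adjusted p = 0.00436 by edgeR). Lrp5 fell by 0.43 ± 0.07 (adjusted p = 0.000343 by edgeR), and 6 of the 10 tested receptors did not pass. Mttp rose by 0.62 ± 0.21 (adjusted p = 0.0324 by edgeR), and Stra6 rose by 3.52 ± 0.48 (adjusted p = 7.35e-05 by edgeR). The cholesterol exporter Abcg1 fell by 2.51 ± 0.25 (adjusted p = 4.54e-06 by edgeR).

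Against CEpiLC, 42 of the 70 were higher and 9 lower in SOX2-OFF, or 72.9% beside 48.5% of all genes. In SOX2-ON, 37 were higher and 13 lower (71.4% beside 56.5%). The 42 included 8 regulators of extraembryonic endoderm and 15 other visceral endoderm genes, and the 37 included 9 and 11. The lists were written with earlier results of these libraries known. Shares and adjusted p-values in SOX2 TetON against wild type are therefore not independent of that choice and are given as a description. Against EpiLC the counts were 48 and 9 in SOX2-OFF (81.4% beside 62.1%) and 43 and 8 in SOX2-ON (72.9% beside 59.8%). Leaving out SOX2-ON replicate 3 gave 36 higher and 12 lower against CEpiLC (68.6% beside 50.1% of all genes). Against EpiLC it gave 38 higher and 9 lower (67.1% beside 53.8%). Lrpap1, the chaperone that escorts megalin and its relatives to the surface, had 29.7 to 32.6 TPM in CEpiLC and 123 to 150 in SOX2-OFF, a log2 difference of 2.10 ± 0.19 (adjusted p = 1.77e-06 by edgeR). Myo6 was higher there by 1.71 ± 0.20 (adjusted p = 1.37e-05 by edgeR), and the phospholipid transfer gene Pltp by 1.12 ± 0.12 (adjusted p = 6.09e-06 by edgeR). The coat subunit gene Ap2b1 was lower by 0.38 ± 0.06 (adjusted p = 0.000128 by edgeR), and the clathrin heavy chain gene Cltc differed by 0.06 ± 0.11 (adjusted p = 0.67 by edgeR). The shifts of chromosomes 6, 8 and 11 between the lines, by 0.58, 0.61 and -0.52 (log2), were not removed from these values. Listed genes on those chromosomes were not set apart, and the difference of Ap2b1 is smaller than each shift.

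The members were also compared by their pattern over the 12 libraries, in log2 CPM. Cubn correlated with Amn at r = 0.98 and with Dab2 at 0.98, with Lrp2 at 0.62 and with Rbp4 at -0.76. After the group means were removed, the same pairs stood at 0.63, 0.66, 0.36 and 0.77, so that Rbp4 ran against Cubn between groups and with it among replicates. Dab2 and Apob had the highest such value, 0.91. These values describe 12 libraries that share 2 cell lines and, among the replicates, SOX2-ON replicate 3.

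Outside the group, the 3 genes most like each member were taken over the same 12 libraries. Cubn was closest to Ptms (r = 0.995), Dpp4 (0.993) and 2810004N23Rik (0.991). Amn was closest to Pth1r (0.989), Gcsh (0.985) and Ptms (0.985), and Dab2 to Fabp3 (0.993), Gas6 (0.991) and Dpp4 (0.989). Dpp4 is a brush-border peptidase on the visceral endoderm list, and Pth1r is a peptide hormone receptor on the parietal endoderm list. Lrp2 was closest to Rap1b (0.968), Ank (0.967) and Eppk1 (0.967), none of them shared with Cubn, Amn or Dab2. For Apoe the nearest were Ctsz (0.968), Gdpd5 (0.962) and Lamb2 (0.958), for Apob Zfp948 (0.968), Ctsc (0.963) and Bcl9l (0.955), for Ttr Ifi30 (0.963), Myo6 (0.961) and Nagk (0.959), and for Rbp4 Ttc30a1 (0.945), Ift57 (0.941) and Fam222b (0.940).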

How the data were processed

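RNA-seq was performed on 12 mouse cultures. Polyadenylated RNA was sequenced as strand-specific single-end reads. Per the labels and the study's methods, the authors trimmed reads with cutadapt 1.16, aligned with STAR 2.5.2a to mm10 and quantified RefSeq genes with RSEM 1.3.0. The deposited table holds expected counts and TPM for each library. Expected counts, as the authors deposited them, need not be whole, and 2.59 to 3.43% of values per library were not. They were rounded here, while deposited TPM values served for levels only.

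Of 24736 genes, 14196 passed filterByExpr. All were fitted in one model of 12 libraries with edgeR 4.0.16 (limma 3.58.1, R 4.3.3), TMM scaling and the quasi-likelihood test, with Benjamini-Hochberg adjustment and calls at 0.05. SEs were derived from the F statistic. The test was checked on simulated counts. The members, lists and tests were chosen with earlier results of these data known. Named were all members, Sox2, genes of the lists that passed the filter and the 3 genes most correlated with each member among genes averaging 2 log2 CPM or more. Alternatives were RLE scaling, no filter, DESeq2 1.42.0 (the study used 1.16.1), a fit of the 6 libraries compared, a replicate block, a threshold of 0.01, removal of chromosome shifts and leaving out each library.

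Same-numbered EpiLC and CEpiLC libraries deviated together (r across genes of 0.120, 0.132 and 0.103). Their numbers were therefore taken as a possible pairing, on this evidence alone, which none of the other 5 comparisons met in all 3 correlations (limit 0.1). The evidence is weak, since replicates 2 and 3 of SOX2-OFF and CEpiLC gave larger values, 0.179 and 0.173. The main fit did not pair the libraries. Pairing entered only as the replicate block, with which Dab2 was also called in CEpiLC against EpiLC. No replicate pair agreed within sampling noise (chi-square per degree of freedom of 7.73 to 44.4). Without molecular identifiers, intervals and floors on counts cover only counting error. A floor of 3 counts per library was used. Positions and promoter windows are from RefSeq on GRCm38.p6, and the promoter of Ttr is not analysed here. A listed gene is not reported here.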

Additional observations from a re-analysis of the deposited data

How the results depend on the processing

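In CEpiLC against EpiLC and SOX2-ON against SOX2-OFF, 155 of 180 differences of single members kept their direction and side of the threshold under the alternatives, 16 lost a call, 7 gained one and 2 reversed. In the comparisons of SOX2 TetON with wild type, where no p was given for single members, 336 of 336 differences moved within 1 SD of the replicates. That SD was the larger of the groups compared and included any library left out, so that leaving out a library was unlikely to exceed it. Within this limit, Apob in SOX2-ON against CEpiLC still ranged from 0.08 to 2.01 (log2) around a main value of 1.35. The reversed values were small: Apoe in CEpiLC against EpiLC became 0.15 (log2) without CEpiLC replicate 3 (-0.18 to 0.15 with a library left out), and Apob in the same comparison became -0.29 without CEpiLC replicate 2 (-0.29 to 0.74). Members called in CEpiLC against EpiLC numbered 2 instead of 1 under RLE scaling, without a filter, under DESeq2, in the fit of the 6 libraries compared and with the replicate block, with Dab2 as the addition. In SOX2-ON against SOX2-OFF the count of 4 became 1 at an adjusted p of 0.01, 2 under DESeq2, 2 in the fit of 6 libraries and 1 to 6 when a library was left out. SOX2-ON against CEpiLC held 4 instead of 7 in the fit of 6 libraries. SOX2-ON against EpiLC held 4 instead of 7 at 0.01 and 4 to 7 with a library left out, namely 4 without EpiLC replicate 1, EpiLC replicate 3 or SOX2-ON replicate 3. Of the 70 further listed genes, endoderm markers included, 31 were called in SOX2-ON against SOX2-OFF. That count became 16 at 0.01 and 18 to 40 with a library left out. It was 18 without SOX2-OFF replicate 2 and 19 without SOX2-ON replicate 2. The cause of these shifts was not tested. The replicate block changed no other call of a member in either tested comparison. Depth limits Apoa1, Afp and Ttr, and it limits the wild-type levels of Apob and Amn, where no library held more than 23 and 15 counts.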
